A study of Rattus norvegicus with 6 samples.

Results

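Small RNA was sequenced from extracellular vesicles (small membrane-enclosed bodies shed by cells) from cultures of rat bone marrow mesenchymal stromal cells (BMSCs), and the sequences described here are those that the authors' table does not assign to a known microRNA (miRNA). They were chosen by their names alone, which the deposited table marks as unannotated and which hold a chromosome and a running number. This gave 124 of 353 rows, and 114 of 311 distinct mature sequences, against 197 annotated sequences. Each is called below by the end of its name, such as chr17_4141. The cells came from the marrow of male SD rats aged 4 weeks and were grown in medium with 10% fetal bovine serum. Libraries were made from vesicles of cultures at 1% oxygen and 5% carbon dioxide (hypoxia, n = 3), and of cultures at 21% oxygen and 5% carbon dioxide (normoxia, n = 3). Nothing in the labels ties the replicates to different animals or cultures, and the p-values below therefore cover the spread among these libraries alone, part of which may be technical.

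A miRNA is cut from a hairpin precursor by the enzyme Dicer, which sets a narrow range of lengths, and is loaded into an Argonaute protein, which prefers a uracil as the first base. Bases 2 to 8, the seed, pair with target messages. Programs that search small RNA reads for unannotated miRNAs look for a stack of reads on a genome position that can fold into a hairpin, and pieces of transfer RNA, ribosomal RNA, messenger RNA and repeats can pass such a search. Vesicles are known to carry many such pieces beside miRNAs.

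The sequences that the results turn on are shown first, with the seed in capitals. The first 7 are those that reached the minimum of the filter on low counts in at least 3 libraries and could be tested between oxygen levels, and the last was listed in every hypoxia library and in no normoxia library.
chr1_639: aGUUCUGUggggugugca
chr9_9899: aAGGAGGCagaggcagg
chr17_4259: uUGUCUGUguguauguccaugu
chr17_4023: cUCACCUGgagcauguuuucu
chr11_1938: aAGCCAACucuccagaucuga
chr16_3888: gCUGGAGGuggagaccc
chr17_4141: cUUGGCACcugguaagcacuca
chr6_8550: uCAGACUUcugcucacccacga

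Total counts ran from 118683 to 248542 in the hypoxia libraries and from 106954 to 227149 in the normoxia libraries. Hypoxia replicate 1 stood apart, with 85 sequences listed against 129 to 183 in the others, so results that rest on it are given with and without it. No library listed a count below 2, and normoxia replicate 2 listed none below 7, so low values may have been left out, and "not listed", or a 0 below, does not mean a measured 0. The mesenchymal stromal marker list (miR-21-5p, miR-199a, miR-214-3p and others) had 11 of 11 members listed, at 32.2 to 41.1% of counts under hypoxia and 29.9 to 44.3% under normoxia. Of 8 blood cell markers 4 were listed, at 0 to 0.0583% under hypoxia and 0.0253 to 0.103% under normoxia. The striated muscle list had 3 of 4 members listed, at 0.147 to 1.89% under hypoxia and 0.324 to 0.487% under normoxia, and the liver miRNA miR-122-5p, which serum carries, took 0.499 to 0.787% under hypoxia and 0.464 to 0.905% under normoxia. The part of blood, muscle or serum RNA in the unannotated sequences was not tested.

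The unannotated sequences were shorter than the annotated ones and spread over more lengths. Their median length was 20 bases (range 17 to 25), against 22 bases (20 to 25) for the annotated. The most common length was 18 bases, with 32 of 114 sequences (28.1%), a length at which no annotated sequence was listed. In all, 49 unannotated sequences (43.0%) had fewer than 20 bases, against 0 of 197 annotated ones. Of the 197 annotated sequences, 180 equal a mature rat miRNA of RefSeq, a reference collection. Their lengths and bases are therefore largely those of reference entries. The window of 21 to 23 bases, in which most known miRNAs lie, held 43 unannotated sequences (37.7%) and 187 annotated ones (94.9%). A second rise stood at 21 bases, with 21 unannotated sequences (18.4%).

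**Figure D1:**
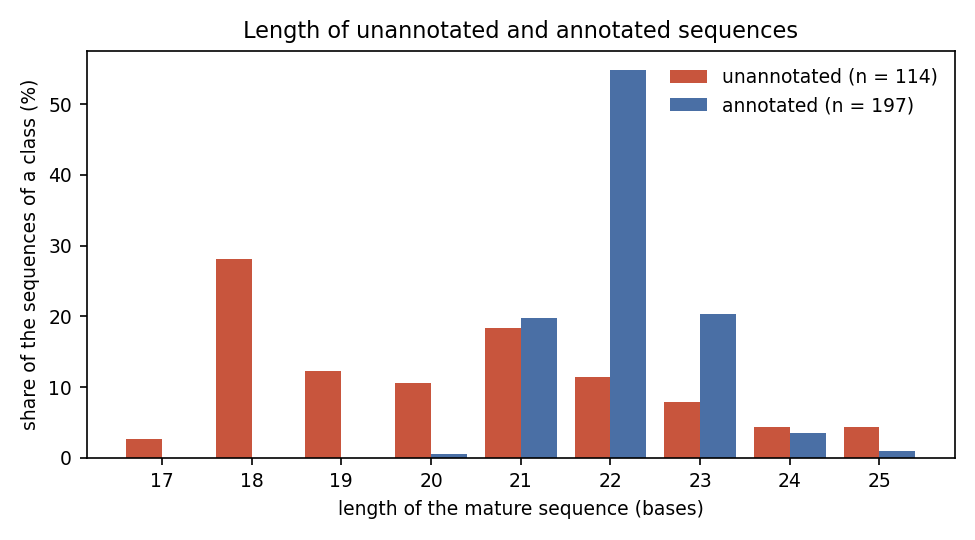
Length of the mature sequence in bases (x axis) against the share of the sequences of a class in percent (y axis), for 114 unannotated sequences (red) and 197 annotated ones (blue). The unannotated sequences have a mode at 18 bases with 28.1%, and 54.8% of the annotated sequences have 22 bases.

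They were also richer in guanine and poorer in uracil. Guanine made up 32.4% of their bases against 25.9% in the annotated sequences, and uracil 23.5% against 29.6%, while adenine (23.6% against 23.1%) and cytosine (20.4% against 21.4%) were close. Uracil was the first base of 34 unannotated sequences (29.8%) and of 97 annotated ones (49.2%). Purines, adenine and guanine together, made up at least 70% of the letters in 25 unannotated sequences (21.9%) and in 4 annotated ones (2.03%). The lowest GC content was 27.8% in the unannotated and 23.8% in the annotated class, and the highest was 100% against 68.2%. The member at 100% was the 18-base cgcgggcggggccggggg (chr9_10081), with 7 counts in hypoxia replicate 2.

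These features moved with length. Of the 65 unannotated sequences with 20 bases or more, 26 (40.0%) began with uracil, and of the 49 shorter ones 8 (16.3%) did. Guanine made up 29.8% of the bases of the longer and 36.6% of the bases of the shorter members. Sequences with at least 70% purines were 10 of the longer (15.4%) and 15 of the shorter (30.6%). Among the 53 annotated sequences seen in 1 library only, 24 (45.3%) began with uracil and guanine made up 25.1% of bases. Sequences are not replicates of a condition, so these shares are given without a test.

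**Figure D2:**
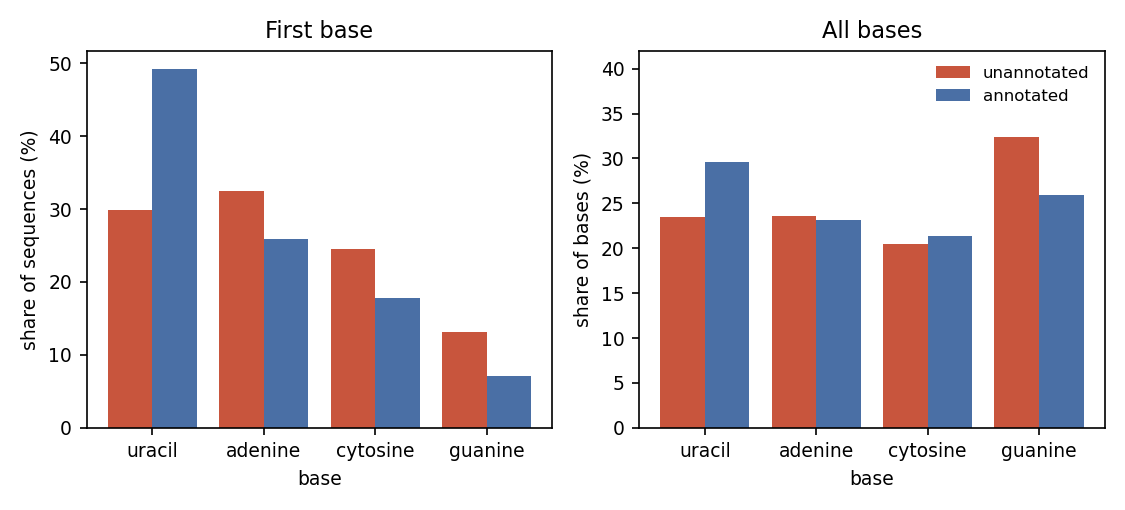
Share of sequences that begin with each base (left, y axis in percent) and share of all bases (right, y axis in percent), for unannotated (red) and annotated (blue) sequences. Uracil begins 29.8% of unannotated and 49.2% of annotated sequences, and guanine makes up 32.4% and 25.9% of all bases.

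Few of the unannotated sequences held the letters of known rat miRNAs. Only rat miRNAs of RefSeq and the annotated sequences of the table were searched, not miRNAs of other species. None of the 114 was equal to any of the 724 rat mature miRNAs of RefSeq (GRCr8), while 180 of 197 annotated sequences (91.4%) were. With exact letters, 4 unannotated sequences (3.51%) lay in a known mature miRNA or hairpin or contained one, and 189 annotated sequences (95.9%) did. These contrasts follow in large part from the naming, since annotated rows carry the names of known miRNAs. The known mature sequences from RefSeq are printed with the stretch shared with the unannotated sequence in capitals, except for the last line, which is the unannotated sequence with the stretch of miR-200c-3p in capitals.
miR-378a-3p, holding chr10_1422: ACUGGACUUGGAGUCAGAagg
miR-149-5p, holding chrX_11217: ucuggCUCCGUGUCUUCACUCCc
miR-365-3p, holding chr14_3106: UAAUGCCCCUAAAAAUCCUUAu
chr4_7323, holding miR-200c-3p: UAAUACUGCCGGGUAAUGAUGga

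chr10_1422 has the letters of miR-378a-3p, a miRNA encoded within the metabolic regulator gene Ppargc1b in mouse, up to base 18. It was not listed under hypoxia and had 14, 0 and 13 counts in normoxia replicates 1 to 3. The full miR-378a-3p had 0, 97 and 140 counts in the hypoxia libraries, against 44, 99 and 51 in the normoxia libraries, so the short form was listed in 2 of the 5 libraries that list the full form. chrX_11217 has the inner letters of miR-149-5p, from base 6 to base 22, and therefore lacks its seed. It had 11 counts in hypoxia replicate 3 and 2 in normoxia replicate 1, where the full miR-149-5p had 43 and 39.

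chr14_3106 has the letters of miR-365-3p without its last base, and had 17 counts in normoxia replicate 2 alone. chr4_7323 has those of miR-200c-3p, a miRNA of epithelial cells, with 2 more bases at the 3′ end that the hairpin Mir200c also holds. It had 7 counts in normoxia replicate 2 alone. No annotated row of the table as analysed here carried the name miR-365 or miR-200c. The chromosome in the name matched that of the RefSeq gene for chr4_7323 (chromosome 4). It did not for the others, whose RefSeq genes lie on chromosome 18 (miR-378a), 9 (miR-149) and 10 (miR-365), against 10, X and 14 in the names. The submitters' processing notes name another build, rn6, and other genome copies were not searched here.

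With 1 mismatch allowed, a further member joined these. chr16_3742, uccuguacugagcuggcccga, differs from miR-486 by the substitution C16G, counted from the 5′ end of miR-486, and lacks its last base. miR-486 is a miRNA of red blood cells, with 0, 64 and 98 counts in the hypoxia libraries, against 99, 28 and 103 in the normoxia libraries, and chr16_3742 had 2 counts in normoxia replicate 3 alone.

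Seeds are far shorter than whole sequences and are therefore shared more readily. The seed of an annotated sequence of the table was found in 7 unannotated sequences (6.14%), and that of any listed or RefSeq mature miRNA in 14 (12.3%), while 66 of 197 annotated sequences (33.5%) shared their seed with another annotated one. The 7 were chr12_2205 with the seed of miR-339-5p, chr10_1422 with miR-378a-3p, whose letters it holds, chr1_851 with miR-132-5p, chr1_814 with the miR-125 family, chr13_2518 with miR-99b-3p, chr4_7323 with miR-200b-3p and miR-429, and chr16_3742 with miR-486. Their totals were 75, 27, 15, 13, 7, 7 and 2 counts. The largest, chr12_2205, was listed in hypoxia replicate 1 alone with 75 counts, a library that did not list miR-339-5p. Of the 7, chr10_1422, chr4_7323 and chr16_3742 are also among the sequence matches given above. Among themselves the unannotated sequences shared 1 seed, in chr2_4950 and chr5_7681. With bases 2 to 7 as the seed, 13 in place of 7 shared that of an annotated sequence.

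A few members carried a stretch known from transfer RNA. The letters UAGNUCAG, with N any base, stand in the D arm near the 5′ end of many tRNAs, as background. They were found in 5 unannotated sequences (4.39%) and in 1 annotated one (0.508%), miR-872-5p. On either strand, with CTGANCTA as the other strand, the letters were in 6 unannotated sequences (5.26%) and 2 annotated ones (1.02%). They were in 3.89% of 33469 rat gene-start windows of RefSeq (GRCr8), each with 250 bases before and 50 after the start. A window is far longer than a member, which has 17 to 25 bases, so the share of windows is no background rate for the members. The 5 are shown with these letters in capitals.
chr5_7482: cgggugUAGUUCAGugguaga
chr5_8039: gggggugUAGCUCAGcgguaga
chr18_4627: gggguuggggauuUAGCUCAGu
chr5_7615: uuggggauuUAGCUCAGugg
chr10_1666: ggugguaUAGCUCAGugg

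The last 3 capitalised runs stand at bases 14 to 21, 10 to 17 and 8 to 15. chr18_4627 and chr5_7615 share 18 bases and are shifted copies of the same stretch. chr18_4627 is also named on chromosome 5, and its exact letters occur in 0.305% of the gene-start windows, at 86 genes, so these letters are repeated in the rat genome. chr5_7615 occurs in 0.353% of the windows, at 102 genes. chr18_4627 had 0, 4 and 0 counts in the hypoxia libraries, against 4, 18 and 8 in the normoxia libraries, and chr5_7615 had 0, 0 and 12 in the hypoxia libraries, against 0, 0 and 6 in the normoxia libraries. chr5_7482 was listed in normoxia replicate 2 alone with 51 counts, chr5_8039 in the same library with 17, and chr10_1666 in hypoxia replicate 3 with 2. tRNA gene sequences were not analysed here, so these matches describe letters only.

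A second pair of overlapping members shared 17 bases, again in capitals.
chr7_8957: cgaaCUUGACUAUCUAGAGGA
chr2_5078: CUUGACUAUCUAGAGGAa
chr7_8957 has 2 names on chromosome 7, and chr2_5078 has names on chromosomes 2 and 7. chr7_8957 had 91, 3 and 13 counts in the hypoxia libraries, against 25, 0 and 4 in the normoxia libraries, and was listed in 5 of 6 libraries. chr2_5078 had 0, 0 and 16 counts in the hypoxia libraries, against 0, 10 and 0 in the normoxia libraries. Normoxia replicate 2 thus listed the shorter form without the longer one. Ribosomal RNA sequences were not analysed here, so neither this pair nor any other member was compared with them. In all, 10 of 114 sequences had more than 1 name, and 4 were named on more than 1 chromosome.

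Only 4 unannotated sequences (3.51%) matched a gene-start window exactly on either strand, and 6 annotated ones (3.05%) did. Beside the repeat pair above, chr9_10081 matched the reverse strand at Dner. The fourth was chr6_8550, whose letters stand on the sense strand of Pgf from base 23 to base 44 after the annotated gene start. Pgf encodes placental growth factor, a ligand of the VEGF family that promotes vessel growth. Pgf lies on chromosome 6, as the name of chr6_8550 says, and no other window held these letters.

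The 124 names covered all 20 numbered chromosomes and X, 21 in all. Chromosome 1 had the most names, 19 (15.3%), against 15 of 162 listed annotated miRNA genes that could be placed in RefSeq (9.26%). Chromosome 5 followed with 14 names (11.3%), against 6 annotated genes (3.70%). Chromosomes X and 6, which hold large miRNA clusters, showed the opposite order, since chromosome X had 4 names (3.23%) against 23 genes (14.2%) and chromosome 6 had 8 names (6.45%) against 17 genes (10.5%). The running numbers in the names went from 96 to 11217 and rose with the chromosomes in text order, with no overlap between chromosomes. What the number counts is not given in the sources used here.

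Most unannotated sequences were seen once. A total of 94 of 114 (82.5%) were listed in 1 library only, against 53 of 197 annotated sequences (26.9%). At the other end, 8 (7.02%) were listed in 4 or more libraries, against 98 annotated ones (49.7%), and 2 against 54 in all 6. The members listed in all 6 were chr9_9899 and chr17_4023. Those listed in 5 were chr1_639, chr17_4259, chr7_8957 and chr16_3888, and those in 4 were chr11_1938 and chr18_4627. Of the 9 members listed in exactly 2 libraries, 3 were in 2 normoxia libraries, 6 in 1 library of each group and 0 in 2 hypoxia libraries.

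**Figure D3:**
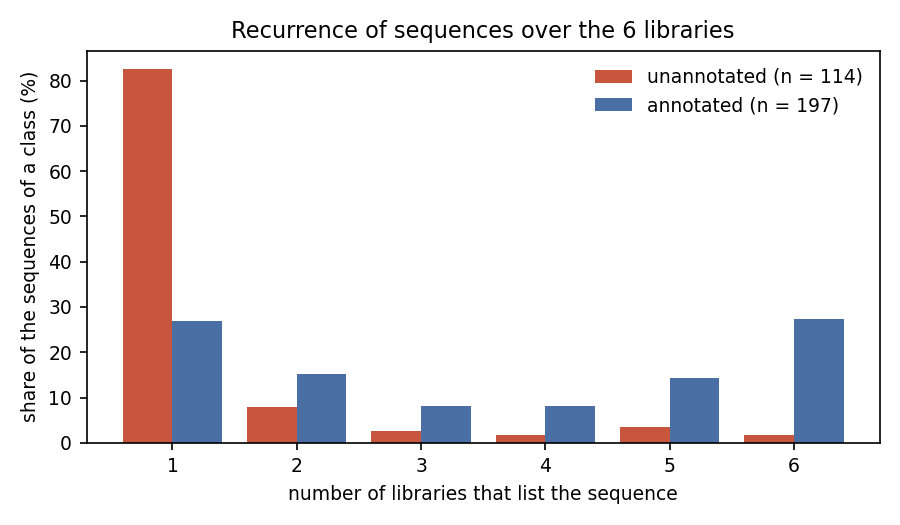
Number of libraries, of 6, that list a sequence (x axis) against the share of the sequences of a class in percent (y axis), for unannotated (red) and annotated (blue) sequences. A total of 82.5% of unannotated sequences were in 1 library, and 27.4% of annotated sequences were in all 6.

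Scarce sequences recurred in fewer libraries, but not equally so in both classes. The median total count over 6 libraries was 18 for unannotated sequences (range 2 to 581) and 100 for annotated ones (2 to 291270). Among sequences with a total of 2 to 9 counts, 22 of 23 unannotated and 29 of 30 annotated ones were in 1 library only. With a total of 10 to 49 counts these were 63 of 71 (88.7%) and 22 of 48 (45.8%). With 50 to 99 counts they were 7 of 9 (77.8%) and 2 of 20 (10.0%), and with 100 to 581 counts, the largest unannotated total, 2 of 11 (18.2%) and 0 of 51. The classes above 49 counts rested on hypoxia replicate 1. Over the other 5 libraries, a comparison added after the data were seen, the unannotated and annotated sequences in 1 library only were 1 of 4 and 2 of 22 with 50 to 99 counts, and 0 of 6 and 0 of 51 with 100 to 581. The class of 10 to 49 counts moved little, with 61 of 71 (85.9%) and 23 of 48 (47.9%), and over all totals the shares were 80.2 and 28.4%.

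The 94 members seen in 1 library were spread over all of them, with 13, 16 and 24 in hypoxia replicates 1 to 3 and 7, 17 and 17 in normoxia replicates 1 to 3. Annotated sequences seen in 1 library numbered 0, 30 and 5 in the hypoxia libraries, against 8, 2 and 8 in the normoxia libraries. The largest such member was chr4_6875 in hypoxia replicate 1, with 174 counts, and chr3_6178 followed in the same library with 144. In hypoxia replicates 2 and 3 the largest were chr1_643 with 13 counts and chr2_4950 with 38. In the normoxia libraries they were chr8_9447 with 21, chr5_7482 with 51 and chr2_5529 with 48. Hypoxia replicate 1 held 8 of its 13 such members at 50 counts or more, normoxia replicate 2 held 1, and the other libraries 0.

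Unannotated sequences took a small part of the counts in every library, 5090 of all counts together (0.483%). Their share was 1.26% (95% exact binomial interval 1.20 to 1.33%), 0.267% (0.241 to 0.295%) and 0.368% (0.344 to 0.392%) in hypoxia replicates 1 to 3. In normoxia replicates 1 to 3 it was 0.478% (0.437 to 0.521%), 0.366% (0.340 to 0.393%) and 0.452% (0.425 to 0.481%). Such intervals cover the counting of reads within 1 library only, and they are too narrow where reads are copies of 1 molecule. Hypoxia replicate 1 lay above all other libraries, hypoxia replicate 2 was the lowest, and hypoxia replicate 3 lay level with normoxia replicate 2.

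The mean share was 0.632 ± 0.547% under hypoxia and 0.432 ± 0.0586% under normoxia (± SD over 3 libraries a group). The difference of 0.200 percentage points was smaller than the spread between hypoxia libraries, with p = 0.9 in a two-sided exact permutation test, which cannot go below 0.1 with 3 against 3 libraries. Without hypoxia replicate 1 the difference was -0.114 percentage points. In vesicle samples, fewer vesicles of a kind and less of an RNA per vesicle cannot be told apart.

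The number of unannotated sequences listed was 18, 28 and 35 in the hypoxia libraries, against 20, 27 and 33 in the normoxia libraries, so the groups overlapped throughout (two-sided exact permutation p = 1.0). As a share of all sequences listed in a library they made up 21.2, 15.3 and 21.1% under hypoxia and 15.3, 20.9 and 21.2% under normoxia (exact permutation p = 0.7). About the same share of the list was thus unannotated in hypoxia replicate 1 as in hypoxia replicate 3 and normoxia replicate 3, although the counts per sequence differed. The median count of a listed unannotated sequence was 77.5 in hypoxia replicate 1, 6.5 in replicate 2 and 19 in replicate 3, and 16.5, 18 and 15 in the normoxia libraries. For annotated sequences the medians were 240, 23 and 63 in the hypoxia libraries, against 52, 95 and 70 in the normoxia libraries. The most abundant unannotated sequence of a library stood between rank 38 and rank 57 among all its sequences.

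**Figure D4:**
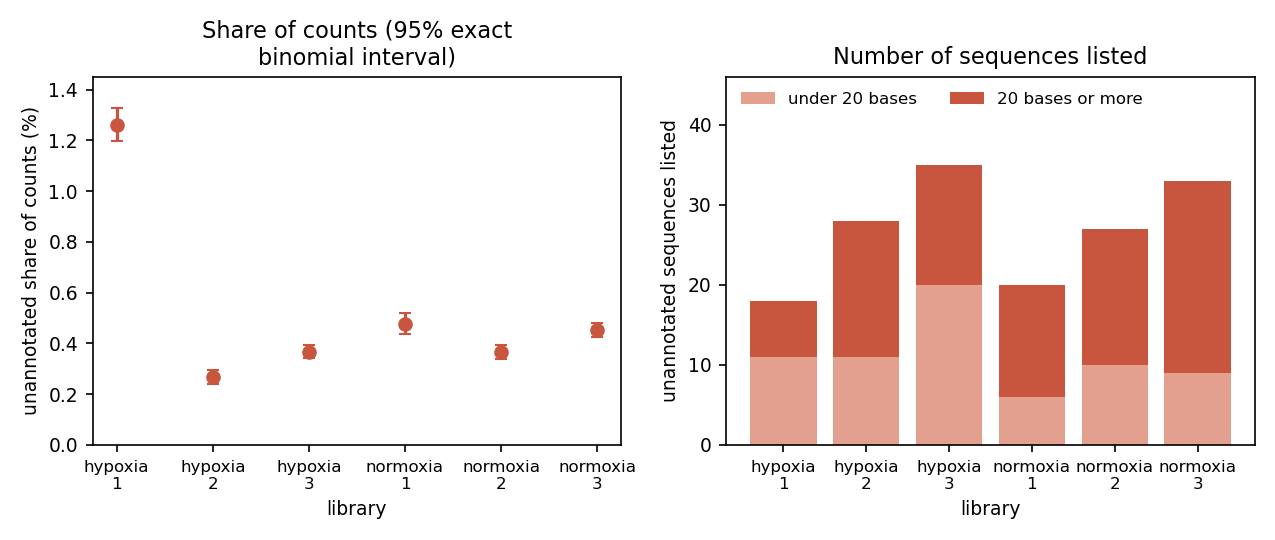
Left, share of the counts of a library in unannotated sequences in percent (y axis), with 95% exact binomial intervals, for hypoxia replicates 1 to 3 and normoxia replicates 1 to 3 (x axis). Right, number of unannotated sequences listed (y axis), divided at 20 bases. Hypoxia replicate 1 has 1.26% of counts in 18 sequences, and the other libraries have 0.267 to 0.478% in 20 to 35.

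The short members were not evenly spread over the libraries, a split that was looked at after the data were seen. Members under 20 bases made up 11 of 18, 11 of 28 and 20 of 35 unannotated sequences in hypoxia replicates 1 to 3, or 61.1, 39.3 and 57.1%. In normoxia replicates 1 to 3 they made up 6 of 20, 10 of 27 and 9 of 33, or 30, 37.0 and 27.3%. Every hypoxia library lay above every normoxia library, and hypoxia replicate 2 and normoxia replicate 2 were close. The means were 52.5 ± 11.6% under hypoxia and 31.4 ± 5.04% under normoxia (± SD over 3 libraries a group), with an exact permutation p of 0.1, the smallest that 3 against 3 libraries allow, and an adjusted value of 0.5 over the 5 measures compared. Without hypoxia replicate 1 the difference was 16.8 percentage points in place of 21.1. By counts in place of sequences the groups overlapped, with 52.9, 43.6 and 50.1% of unannotated counts under hypoxia and 47.2, 34.2 and 45.7% under normoxia (exact permutation p = 0.3, adjusted 0.75). Over all libraries, 32 short members were listed in hypoxia only and 11 in normoxia only, and of the longer ones 22 in hypoxia only and 34 in normoxia only. Of the annotated sequences, none of them under 20 bases, 43 were listed in hypoxia only and 18 in normoxia only. Of these 43, 30 were listed in hypoxia replicate 2 alone, so this lean to hypoxia rested largely on 1 library.

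Between the oxygen levels, none of the 7 unannotated sequences that could be tested passed the test. edgeR's quasi-likelihood test over all 107 tested sequences called 0 higher and 0 lower at a Benjamini-Hochberg adjusted p under 0.05 (0% of all tested in each direction). At an unadjusted p under 0.05 it found 1 sequence (0.935% of all tested), the unannotated chr17_4141. Over the alternatives that number was lowest, 0, with hypoxia replicate 3 left out or a mean count of at least 50. It was highest without a filter, with 6 of 311 tested. All 6 were unannotated, and each was listed in 1 group only, most of them in hypoxia replicate 1 alone. Of 107 tested sequences DESeq2 found 1 and limma-voom 4, of which 2 were unannotated. The other 107 unannotated sequences reached the minimum of the filter in at most 2 libraries and were not tested. Among them were chr6_8550, chr4_6875, chr3_6178 and chr7_8957, with larger totals than some of the 7. Of the 7 fitted log2 fold changes, hypoxia over normoxia, 2 were above 0 and 5 below, with a median of -1.24, that of chr16_3888. Over all 107 tested sequences 44 were above 0 and 63 below, with a median of -0.14. Of the 5 below 0, none was listed in hypoxia replicate 1. Each of the 5 therefore needed normoxia libraries to reach the filter's 3. Their direction is thus not independent of the selection, most plainly for chr17_4141 and chr11_1938. The tally and the median of the 7 are given as a description.

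chr17_4141 was not listed in any hypoxia library and had 41, 28 and 29 counts in normoxia replicates 1 to 3. As CPM, which are counts scaled to library size, with TMM factors, the normoxia values were 399.5, 138 and 142 CPM. The groups did not overlap. It passed the filter through the normoxia libraries alone, so a difference was built into its selection and its p-values are given as a description. They were 0.0124 unadjusted and 0.998 adjusted in edgeR. Over the alternatives the adjusted p ran from 0.0138 to 1.0, the lowest with limma on the authors' normalized values at a pseudocount of 1, the only fit that called it. With a pseudocount of 10 on the same values it was 0.283, and without a filter in edgeR 0.421. No fold change is given, because the hypoxia libraries list no count. The seed of chr17_4141 is that of rat miR-96-5p in RefSeq, which the table did not list. Beyond the seed, its letters matched no rat miRNA searched, exactly or with 1 mismatch. miRNAs of other species were not searched. Of the tested members, chr9_9899 and chr17_4259 also have the seed of a RefSeq miRNA, miR-764-3p and miR-632.

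chr6_8550 had the opposite pattern. It had 203, 6 and 68 counts in hypoxia replicates 1 to 3 and was not listed in any normoxia library. The groups did not overlap, but hypoxia replicate 2 was far below the other hypoxia libraries. It was singled out by this pattern, and in the fits with a library left out it passed the filter through hypoxia libraries alone. A difference was thus built into the selection of chr6_8550, and its p-values are given as a description. Without a filter on low counts edgeR gave it an unadjusted p of 0.000387 and an adjusted p of 0.120, and with hypoxia replicate 2 left out the adjusted p was 0.0723. With normoxia replicate 1, 2 or 3 left out it was 0.455, 0.994 and 1.0. The fit without a filter also gave low unadjusted p-values to sequences seen in hypoxia replicate 1 alone, 0.00407 for chr4_6875 and 0.00859 for chr3_6178. Among all 311 listed sequences, chr6_8550 was the 1 sequence listed in every hypoxia library and in no normoxia library (0.322% of all sequences), and chr17_4141 the 1 with the reverse pattern (0.322%). No annotated sequence had either pattern. With a count of at least 10 needed to be listed, chr17_4141 kept its pattern and chr6_8550 did not, since hypoxia replicate 2 had 6.

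chr1_639 was the most abundant unannotated sequence, with 581 counts in all. It had 0, 59 and 81 counts in the hypoxia libraries, against 109, 109 and 223 in the normoxia libraries, or 0, 439 and 328 CPM against 1062, 537 and 1091 CPM. All hypoxia values lay below all normoxia values. Its log2 fold change was -1.81 (SE 1.52), and its 95% interval ran from -5.09 to 1.48 (edgeR, adjusted p = 0.998). Without hypoxia replicate 1 it was -0.997. Groups that did not overlap were found for chr1_639 and chr17_4141 among the 7, and for 8 of all 107 tested sequences (7.48%), each of them lower under hypoxia.

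chr17_4023 leaned the other way. It was listed in all libraries, with 114, 13 and 62 counts in the hypoxia libraries, against 12, 20 and 39 in the normoxia libraries. The groups overlapped, and hypoxia replicate 1 was the highest. Its log2 fold change was 1.46 (SE 1.54, 95% interval -1.85 to 4.77, adjusted p = 0.998 in edgeR), and 0.54 without hypoxia replicate 1.

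chr9_9899, a 17-base sequence with 88.2% purines, had 184, 48 and 52 counts in the hypoxia libraries, against 75, 31 and 68 in the normoxia libraries. Its log2 fold change was 0.58 (SE 1.37, adjusted p = 0.998 in edgeR) and turned to -0.27 without hypoxia replicate 1. chr17_4259 had 0, 94 and 106 counts in the hypoxia libraries, against 48, 118 and 79 in the normoxia libraries. Its value was -0.35 (SE 1.67, adjusted p = 0.998 in edgeR) and 0.48 without that library. The direction of both therefore rested on hypoxia replicate 1.

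chr11_1938 had 0, 32 and 0 counts in the hypoxia libraries, against 41, 39 and 101 in the normoxia libraries, so that 1 of 3 hypoxia libraries and all normoxia libraries listed it. Its scaled values overlapped between groups, and its log2 fold change was -2.19 (SE 2.03, adjusted p = 0.998 in edgeR), and -1.33 without hypoxia replicate 1. All its hypoxia counts were in hypoxia replicate 2, and without that library no fold can be given. The filter needed 3 libraries, which the normoxia libraries alone supplied for chr11_1938. A difference was thus in part built into its selection, and its fold change and p-value are given as a description. chr16_3888 had 0, 12 and 29 counts in the hypoxia libraries, against 20, 8 and 53 in the normoxia libraries, with a log2 fold change of -1.24 (SE 2.01, adjusted p = 0.998 in edgeR), and -0.47 without hypoxia replicate 1. The median standard error over the 7 was 1.67 on the log2 scale, against 1.40 over the 100 annotated sequences tested.

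**Figure D5:**
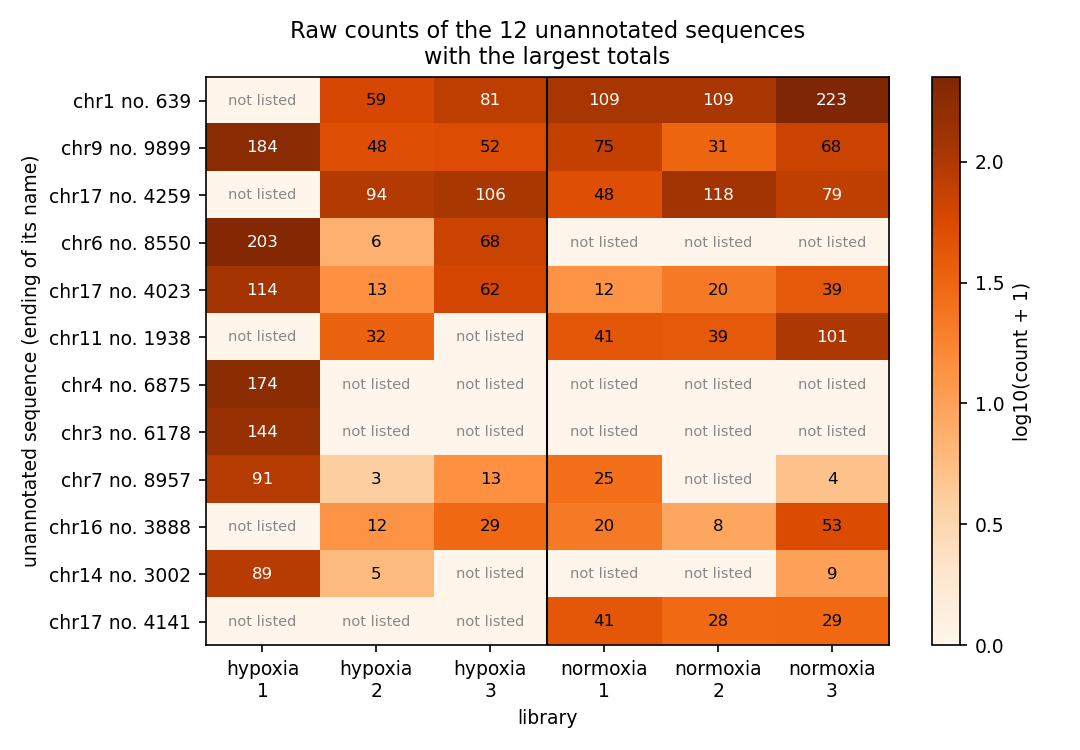
Raw counts of the 12 unannotated sequences with the largest totals (rows, by the end of the name) in hypoxia replicates 1 to 3 and normoxia replicates 1 to 3 (columns), shaded by log10(count + 1). chr6_8550 is listed in hypoxia libraries only and chr17_4141 in normoxia libraries only, and chr4_6875 and chr3_6178 in hypoxia replicate 1 alone.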

How the data were processed

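The authors' first table holds raw tag counts per mature miRNA and precursor, per the file headers. Their second deposited table, of normalized values, was used as a score in alternatives. Tools named in the submitters' processing notes were Novoalign 3.02.12 and cutadapt 1.9.3, with build rn6. Not given in the sources used here are the counting program, the predictor of unannotated miRNAs and any minimum count. Blank cells were taken as 0. Rows were reduced to distinct mature sequences, and names holding the table's mark were taken as unannotated. The members, lists and tests were chosen with earlier results of these data known.

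The test on counts was edgeR 4.0.16 under R 4.3.3 (filterByExpr with a minimum count of 10 and a minimum total of 15, TMM factors from 0.904 to 1.25, robust glmQLFit, glmQLFTest, Benjamini-Hochberg adjustment over all 107 tested sequences). The script was tested on simulated counts with a spread far below that of these data (common biological coefficient of variation 1.065 in edgeR). That test checked the code and does not show the power to find changes here. For single values per library, exact permutation tests (two-sided, scipy 1.17.1) were run. DESeq2 1.42.0 and limma 3.58.1 were alternatives. Sequences were matched to RefSeq tables (GRCr8) by exact letters or with 1 mismatch. Named members are those tested, the 10 with the largest totals and those in 4 or more libraries. Also named are those that match a known miRNA or share the seed of an annotated sequence, and the largest single-library member of each library. chr9_10081, chr5_7615, chr5_8039, chr10_1666, chr2_5078 and chr5_7681 were named after their values or letters were seen.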

Additional observations from a re-analysis of the deposited data

How the results depend on the processing

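The count of 0 called sequences held in both directions under 18 of 19 other fits. The exception was limma on the authors' normalized values at a pseudocount of 1, with 1 sequence called lower, the unannotated chr17_4141, with an adjusted p of 0.0138. It has no listed count under hypoxia, so its fitted size depends on the pseudocount. Of the 7 tested members, chr9_9899 (-0.27) and chr17_4259 (0.48) changed sign without hypoxia replicate 1, within ranges of -0.27 to 1.46 and -1.0 to 0.48 over the libraries left out in turn, and the other 5 kept their sign wherever a value was given. None of these changes passed the test, and the cause was not tested.

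The differences, hypoxia minus normoxia, in the share of counts, the number listed and the share of listed sequences were smaller than the SD of the hypoxia libraries. The difference in the share of counts changed sign only without hypoxia replicate 1, and the others changed sign under several alternatives. With each library left out in turn, the difference in the share of counts ran from -0.114 to 0.382 percentage points, that in the number listed from -3.67 to 4.83, and that in the share of listed sequences from -1.85 to 2.01 percentage points. With a minimum count of 10 the last 2 were -3.33 and -1.69, and with sequences of 20 bases or more, an alternative chosen after seeing the data, -5.33 and -4.07 percentage points, the last with an exact permutation p of 0.1, the smallest that 3 against 3 libraries allow. The share of short members was 16.8 to 27.7 percentage points higher under hypoxia with each library left out, and their share of counts 2.46 to 9.19. With seed bases 2 to 7, 13 unannotated sequences shared the seed of an annotated one.

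Replicate numbers are shared between groups, but the labels do not say that they pair the libraries. Deviations of same-numbered libraries correlated at 0.119, -0.0307 and 0.0567. With the replicate number as a block, 0 sequences were called, 2 had an unadjusted p under 0.05, neither of them unannotated, the value of chr11_1938 was -6.15, and the exact p of the paired differences, which cannot go below 0.25 with 3 pairs, was 1.0 for the share of counts (0.200), for the number listed (0.333) and for the share listed (0.0700), and 0.25 for both shares of short members (21.1 and 6.54). Depth limits all members with few counts.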
